A study of Mus musculus with 6 samples.

Results

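The unfolded protein and integrated stress response was followed through 10 genes: Atf4, Ddit3, Trib3, Chac1, Sesn2, Asns, Xbp1, Hspa5, Herpud1 and Sdf2l1. They were picked by symbol from the 35027 genes of the expression table, and all 10 were found and had a mean of at least 1, the minimum set for testing. RNA-seq measured the RNA of thyroid tumor cells of mice, sorted for the red fluorescent protein Kate. The YAP group (3 libraries) expressed YAPS127A, a constitutively nuclear YAP, switched on in thyroid follicular cells by doxycycline chow from 4 weeks of age. The BRAFYAP group (3 libraries) had the same transgene, chow and sorting gate, and in addition BrafV600E expressed from the endogenous locus. Both groups carried a Rosa26 allele that gives rtTA and the Kate marker, on a mixed genetic background. Per the labels a YAP library was a pool of 3 tumors and a BRAFYAP library was 1 tumor, whereas the study's methods describe a single tumor per mouse for each replicate. By the labels, pooling and genotype cannot be told apart. Pools could even out differences between tumors, but the YAP libraries were not the more alike for most of these genes. Their highest value over their lowest was larger than in BRAFYAP for Atf4, Trib3, Sesn2, Xbp1, Hspa5, Herpud1 and Sdf2l1. It was smaller for Ddit3, Chac1 and Asns.

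The endoplasmic reticulum (ER) folds secreted and membrane proteins, and thyroid follicular cells load it heavily because they make thyroglobulin. When unfolded proteins build up, the kinase and nuclease IRE1 splices the Xbp1 mRNA into a form that codes for an active transcription factor, ATF6 is cleaved into another, and the kinase PERK phosphorylates the translation factor eIF2alpha. The last step is shared with GCN2, which senses missing amino acids, and is called the integrated stress response: general translation falls while the ATF4 mRNA is translated better. Because ATF4 is controlled mainly by translation and XBP1 by splicing, the mRNA levels of both genes are not measures of their proteins' activity, and the gene-level values used here do not separate spliced from unspliced Xbp1.

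Estimated depth was 26.2 to 36.9 M reads per library. Levels are given as the deposited TPM, which had been divided by each gene's whole genomic span, so TPM were compared between libraries within a gene and not between genes. Sums of TPM over a list weigh genes of short span most. They were compared between libraries within a list and not between lists. The libraries of each group varied widely: YAP replicate 1 had the lowest value of all 6 libraries for 33.5% of the 7319 genes tested and the highest for 29.8%, and BRAFYAP replicate 6 the lowest for 32.5% and the highest for 19.8%. Between YAP replicates 1 and 2, 5.71% of genes were over 4-fold lower in replicate 1 and 0.0683% over 4-fold higher, on log2(TPM + 1). In these sorted cells fewer cells of a type and less RNA per cell cannot be told apart.

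Promoter sequence shows which members carry the letters of known stress response elements. RefSeq windows of 250 bases before to 50 bases after the start (GRCm38.p6) were present for all 10 genes and were searched on both strands for 4 motifs. These were the ER stress response element ERSE (CCAAT, 9 of any base, CCACG), ERSE-II (ATTGG, 1 of any base, CCACG), the unfolded protein response element core UPRE (TGACGTGG) and the C/EBP-ATF response element CARE (TGATGNAA). ERSE was in 0.119% of all 32851 windows, ERSE-II in 0.0365%, UPRE in 0.676% and CARE in 3.97%. At least 1 motif was in 5 of the 10 windows. The 5 windows below are shown because they hold an element in an ER target (Hspa5, Herpud1) or in an ATF4 target (Asns, Chac1), or belong to the member whose groups did not overlap (Xbp1). Capitals mark the matches, and no 2 matches overlapped.
Hspa5, chr2:34771840-34772139, + strand: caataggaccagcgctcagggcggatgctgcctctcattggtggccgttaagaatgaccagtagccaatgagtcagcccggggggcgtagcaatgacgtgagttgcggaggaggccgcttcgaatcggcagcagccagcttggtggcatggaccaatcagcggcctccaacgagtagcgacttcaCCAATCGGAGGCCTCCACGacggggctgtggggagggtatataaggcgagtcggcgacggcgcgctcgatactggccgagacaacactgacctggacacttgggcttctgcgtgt
Herpud1, chr8:94386179-94386478, + strand: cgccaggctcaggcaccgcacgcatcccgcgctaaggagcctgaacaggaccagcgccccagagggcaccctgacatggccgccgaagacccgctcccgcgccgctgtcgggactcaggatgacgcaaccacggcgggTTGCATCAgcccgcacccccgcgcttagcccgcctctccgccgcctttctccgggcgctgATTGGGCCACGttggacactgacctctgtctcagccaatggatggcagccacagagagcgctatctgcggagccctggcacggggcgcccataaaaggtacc
Asns, chr6:7693160-7693459, - strand: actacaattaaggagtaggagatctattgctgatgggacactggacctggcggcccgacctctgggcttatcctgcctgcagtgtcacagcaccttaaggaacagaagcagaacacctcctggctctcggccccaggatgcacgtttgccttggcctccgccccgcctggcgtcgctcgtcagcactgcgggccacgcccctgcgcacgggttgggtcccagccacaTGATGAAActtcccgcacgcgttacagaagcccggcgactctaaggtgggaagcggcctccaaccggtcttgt
Chac1, chr2:119350992-119351291, + strand: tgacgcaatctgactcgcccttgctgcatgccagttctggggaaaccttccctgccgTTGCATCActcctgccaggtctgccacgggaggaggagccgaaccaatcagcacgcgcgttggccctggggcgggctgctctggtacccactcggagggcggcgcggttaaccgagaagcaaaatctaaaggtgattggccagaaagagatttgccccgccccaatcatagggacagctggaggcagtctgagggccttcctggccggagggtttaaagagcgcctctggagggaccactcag
Xbp1, chr11:5520391-5520690, + strand: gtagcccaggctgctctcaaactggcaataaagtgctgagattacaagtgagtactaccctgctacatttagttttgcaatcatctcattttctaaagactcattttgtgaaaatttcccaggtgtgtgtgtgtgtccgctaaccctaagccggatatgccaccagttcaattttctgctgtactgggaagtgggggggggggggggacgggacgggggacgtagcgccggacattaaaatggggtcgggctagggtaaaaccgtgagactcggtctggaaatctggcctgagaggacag

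Hspa5 held an ERSE that began 65 bases before the start. In Herpud1, an ERSE-II began 52 bases before the start, and a CARE on the minus strand 112 bases before it. The CARE of Asns began 23 bases before the start and that of Chac1, on the minus strand, 193 bases before it. Trib3, whose window is not printed, had a CARE on the minus strand that began 14 bases after the start. No match was found in the windows of Atf4, Ddit3, Sesn2, Sdf2l1 and Xbp1, which says only that these letters are not in these 300 bases.

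The genotypes were compared gene by gene. None of the 10 genes passed an adjusted p of 0.05 (limma, Benjamini-Hochberg over 7319 genes), and few genes did at all: 18 of 7319 (0.246%), 12 of them (0.164%) lower in BRAFYAP. At an unadjusted p under 0.05, 2 of the 10 were called, Xbp1 higher and Asns lower in BRAFYAP, against 19.9% of all genes (10.7% higher and 9.17% lower). The 3 libraries of each group did not overlap for 1 of the 10, Xbp1, against 28.2% of all genes (11.8% higher and 16.4% lower in BRAFYAP). The difference BRAFYAP minus YAP on log2(TPM + 1) was above 0 for 7 genes and below 0 for 3, with a median of 0.38 beside -0.06 over all genes tested. Without YAP replicate 1 the median was 0.09, with 6 genes above 0, and without YAP replicate 1 and BRAFYAP replicate 6 it was -0.02, with 5 above 0. Of the 16 alternative settings, weights per library brought 1 of the 10, Xbp1, past the adjusted threshold, and the others brought 0.

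**Figure D1:**
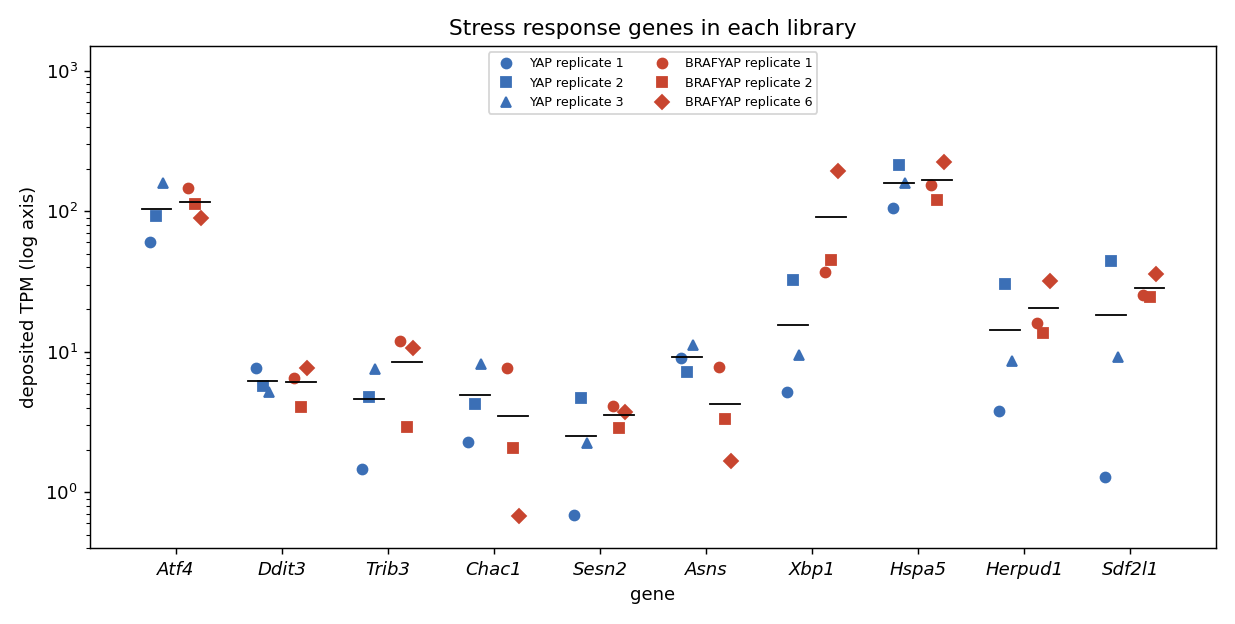
Deposited TPM of the 10 genes (x axis) in each library, on a log y axis. Blue points are the YAP libraries, red points the BRAFYAP libraries and black bars the group means; the groups overlap for every gene but Xbp1.

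The transcription factors of the integrated stress response had levels that overlapped between the groups. Atf4 codes for its central activator and lies at chr15:80255184-80257541 (GENCODE M21 on mm10, as for all loci). It was at 60.1, 93.1 and 158 TPM in YAP replicates 1, 2 and 3, and at 147, 112 and 89.0 TPM in BRAFYAP replicates 1, 2 and 6. All 3 BRAFYAP values lay inside the YAP range. The difference was 0.24 ± 0.41 on log2(TPM + 1) (SE), with a 95% interval of -0.73 to 1.20 (adjusted p = 0.769). Leaving out YAP replicate 1, its lowest library, turned it to -0.10.

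Ddit3 codes for CHOP, a factor that ATF4 induces and that promotes cell death under lasting stress (chr10:127290774-127296288). Its TPM were 7.70, 5.67 and 5.18 in the YAP libraries and 6.48, 4.08 and 7.72 in the BRAFYAP libraries. Its spread of 1.49-fold within YAP was the narrowest of the 10 genes, and it was 1.89-fold within BRAFYAP. The difference was -0.04 ± 0.29, with an interval of -0.71 to 0.64 (adjusted p = 0.956). The sign was not stable: it was 0.11 without YAP replicate 1 and 0.19 without BRAFYAP replicate 2. Ddit3 overlaps Mars and Gm4189 on the other strand, and the counting was not stated to use strand, so reads from the shared bases cannot be told apart.

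The differences of the ATF4 targets had either sign. Trib3, a pseudokinase that dampens ATF4 and CHOP (chr2:152337422-152344032), was at 1.48, 4.79 and 7.50 TPM in YAP and at 12.0, 2.93 and 10.7 TPM in BRAFYAP. BRAFYAP replicates 1 and 6 were above all YAP libraries and BRAFYAP replicate 2 was below 2 of them. The difference was 0.76 ± 0.61 (adjusted p = 0.506), with 0.26 without YAP replicate 1 and 1.31 without BRAFYAP replicate 2. Sesn2, sestrin 2, which restrains mTORC1 when leucine is short (chr4:132492032-132510501, where Gm12981 overlaps it on the other strand), was at 0.693, 4.67 and 2.25 TPM in YAP and at 4.13, 2.85 and 3.73 TPM in BRAFYAP. Its BRAFYAP libraries were within 1.45-fold of each other and its YAP libraries spread over 6.73-fold. The difference of 0.53 ± 0.43 (adjusted p = 0.515) fell to 0.08 without YAP replicate 1.

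Chac1 codes for an enzyme that breaks down glutathione (chr2:119351229-119354381). It was at 2.27, 4.22 and 8.24 TPM in YAP and at 7.71, 2.08 and 0.673 TPM in BRAFYAP, and the range within BRAFYAP, 11.5-fold, was the widest of the 10 in that group. BRAFYAP replicate 1 was near the top YAP library and replicates 2 and 6 were below every YAP library. The difference was -0.60 ± 0.64 (adjusted p = 0.620), with -1.25 without BRAFYAP replicate 1 and -0.06 without BRAFYAP replicate 6.

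Asns, asparagine synthetase, the enzyme that makes asparagine from aspartate (chr6:7675169-7693254), was the member with the lowest difference. It was at 8.99, 7.17 and 11.2 TPM in YAP and at 7.73, 3.31 and 1.68 TPM in BRAFYAP. BRAFYAP replicates 2 and 6 were below all YAP libraries, while replicate 1 was above YAP replicate 2. The group means were 9.13 ± 2.03 TPM (SD, n = 3) and 4.24 ± 3.13 TPM (SD, n = 3). The difference of -1.10 ± 0.44, with an interval of -2.14 to -0.06, had an unadjusted p of 0.0404 by limma and an adjusted p of 0.229. It stayed below 0 in all 16 alternatives, from -1.56 without BRAFYAP replicate 1 to -0.56 with the replicate number as a block, and its adjusted p ran from 0.0892 to 0.570.

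Among the genes of the ER response, Xbp1 had the largest difference (chr11:5520659-5525893). It was at 5.18, 32.2 and 9.45 TPM in YAP replicates 1, 2 and 3 and at 37.2, 45.1 and 192 TPM in BRAFYAP replicates 1, 2 and 6. The groups did not overlap, but the top YAP library and the lowest BRAFYAP library lay close together, and BRAFYAP replicate 6 stood over 4-fold above the other libraries of its group. The means were 15.6 ± 14.5 TPM and 91.5 ± 87.2 TPM (SD, n = 3 each), a ratio of 5.86. The difference was 2.44 ± 0.80, with an interval of 0.54 to 4.34, an unadjusted p of 0.019 and an adjusted p of 0.163 by limma. Without BRAFYAP replicate 6 it was 1.70, without YAP replicate 1 it was 1.91, and without both 1.17. With a weight per library, which gave YAP replicate 1 and BRAFYAP replicate 6 the lowest weights, it was 1.97 with an adjusted p of 0.0245, in a fit that called 1393 genes.

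Xbp1 is also high in plasma cells. Of their markers, Jchain had at most 41 estimated reads, Mzb1 at most 21 and Tnfrsf17 at most 2.0. Prdm1 had more, with 392, 606 and 123 estimated reads in YAP and 315, 409 and 368 in BRAFYAP. The immunoglobulin gene Ighm had at most 1014 estimated reads and Igkc at most 241. Ighm was at 3.51, 9.86 and 2.09 TPM in YAP and 0.308, 0.331 and 0.840 TPM in BRAFYAP. Igkc was at 0.192, 18.4 and 1.28 TPM in YAP and 0.207, 0.0491 and 5.10 TPM in BRAFYAP. Igkc was highest in YAP replicate 2 and BRAFYAP replicate 6, the libraries with the highest Xbp1 of each group. The summed TPM of the 11 plasma and B cell markers were 5.03 to 35.5 in YAP and 20.95 to 90.1 in BRAFYAP. Most of the BRAFYAP sum was Sdc1, syndecan 1, which epithelial cells express too, at 0.929, 6.38 and 1.77 TPM in YAP and 19.9, 25.5 and 83.1 TPM in BRAFYAP. BRAFYAP replicate 6, the library with the highest Xbp1, also had the most estimated reads of the thyroid follicular gene Tg (22118). The other BRAFYAP libraries had at most 116. In YAP it was otherwise: Tg had 6476, 1046 and 16193 estimated reads in replicates 1, 2 and 3, fewest in replicate 2, where Xbp1 was highest. The part of these differences in the Xbp1 values was not tested.

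Hspa5, Herpud1 and Sdf2l1, which act inside the ER or at its membrane, overlapped between the groups. Hspa5 codes for BiP, the main Hsp70 chaperone of the ER and the usual readout of ER stress (chr2:34771970-34777547). It was at 106, 213 and 159 TPM in YAP and at 155, 121 and 225 TPM in BRAFYAP. The ranges coincided nearly end to end, with means of 159.5 ± 53.5 and 166.9 ± 53.2 TPM (SD, n = 3 each). The difference of 0.07 ± 0.37, with an interval of -0.80 to 0.95 (adjusted p = 0.931), took either sign when libraries were left out, from -0.19 to 0.31.

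Herpud1, a membrane protein of ER-associated degradation (chr8:94386438-94395377, where Gm15890 overlaps it on the other strand), was at 3.78, 30.3 and 8.56 TPM in YAP and at 16.0, 13.6 and 31.99 TPM in BRAFYAP. YAP replicate 2 matched the top BRAFYAP library, and the other YAP libraries were below all of BRAFYAP. Its difference was 0.84 ± 0.69 (adjusted p = 0.520). It was 0.22 without YAP replicate 1, 1.58 without YAP replicate 2, and -0.14 without YAP replicate 1 and BRAFYAP replicate 6. Sdf2l1, an ER protein that works with the chaperone complex (chr16:17130138-17132383), was at 1.29, 44.2 and 9.21 TPM in YAP and at 25.4, 24.6 and 35.7 TPM in BRAFYAP. It had the widest spread of all 10 genes within YAP, 34.2-fold, and among the narrowest within BRAFYAP, 1.45-fold. The difference of 1.52 ± 0.97 (adjusted p = 0.417) became 0.44 without YAP replicate 1 and 2.59 without YAP replicate 2.

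**Figure D2:**
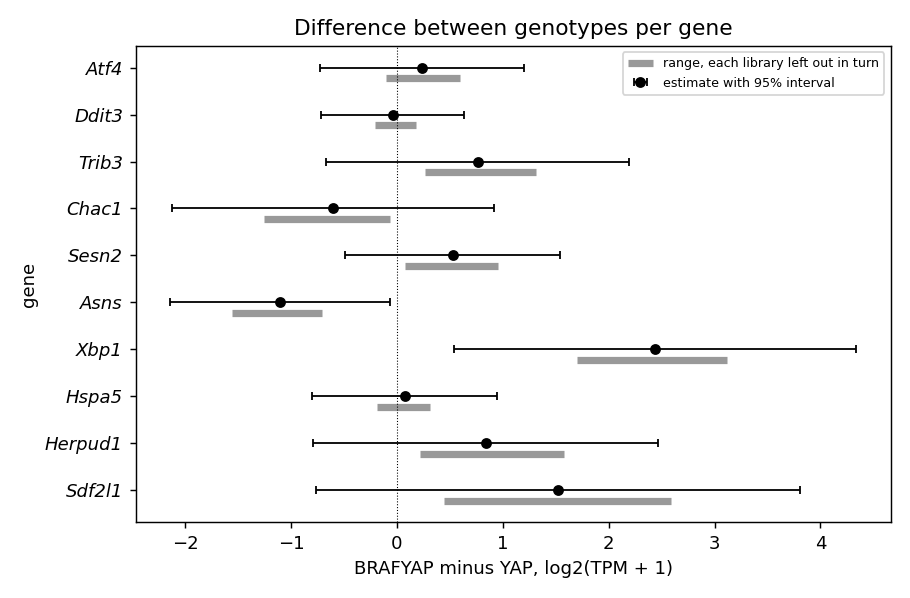
BRAFYAP minus YAP on log2(TPM + 1) for each gene (points, with 95% intervals as thin lines) and, as thick grey bars, the range of the estimate when each of the 6 libraries was left out in turn. The intervals of Xbp1 (0.54 to 4.34) and Asns (-2.14 to -0.06) lie to either side of 0 and the other 8 include it.

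Libraries of the same group differed in which of these genes were high or low. YAP replicate 1 was the lowest of the 6 libraries for 7 of the 10 genes (Atf4, Trib3, Sesn2, Xbp1, Hspa5, Herpud1 and Sdf2l1), and was over 4-fold below YAP replicate 2 on log2(TPM + 1) for Xbp1, Herpud1 and Sdf2l1. BRAFYAP replicate 6 was the highest for Ddit3, Hspa5, Xbp1 and Herpud1 and the lowest for Chac1 and Asns. YAP replicate 3 was the highest for Atf4, Chac1 and Asns, which all belong to the ATF4 arm, and YAP replicate 2 for Sesn2 and Sdf2l1. YAP replicate 1 was also the library whose deviations fell with the GC content of transcripts: their Spearman correlation, over 7291 genes that share 1 library, was -0.33 there and between -0.03 and 0.25 in the other libraries. The GC content of the 10 transcripts ran from 45.6% for Hspa5 and Ddit3 to 58.7% for Sesn2. With the GC trend of each library removed, Xbp1 differed by 2.49, Asns by -0.97 and the median gene of the 10 by 0.18.

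Profiles over the 6 libraries were compared by the root mean square difference of centred log2(TPM + 1) values. The closest pair of the 10 was Hspa5 and Sesn2 at 0.38, followed by Ddit3 and Hspa5 at 0.43, Herpud1 and Sesn2 at 0.48 and Chac1 and Asns at 0.49. The farthest were Asns and Xbp1, at 2.29, and Chac1 and Xbp1, at 2.18. Xbp1 and Asns stood at opposite ends within BRAFYAP replicate 6, where the centred value of Xbp1 was 2.69 and that of Asns -1.35. Among all genes tested, the profiles nearest to Hspa5 were those of Sowahc (0.084), Ppp1ca (0.112), the catalytic subunit of a major phosphatase, and Papola (0.118), a poly(A) polymerase, where the median gene was at 0.553. Nearest to Ddit3 were Rps23-ps2 (0.063), a pseudogene whose reads may belong to its parent gene, Dnttip2 (0.071) and Acy3 (0.096), where the median gene was at 0.495.

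**Figure D3:**
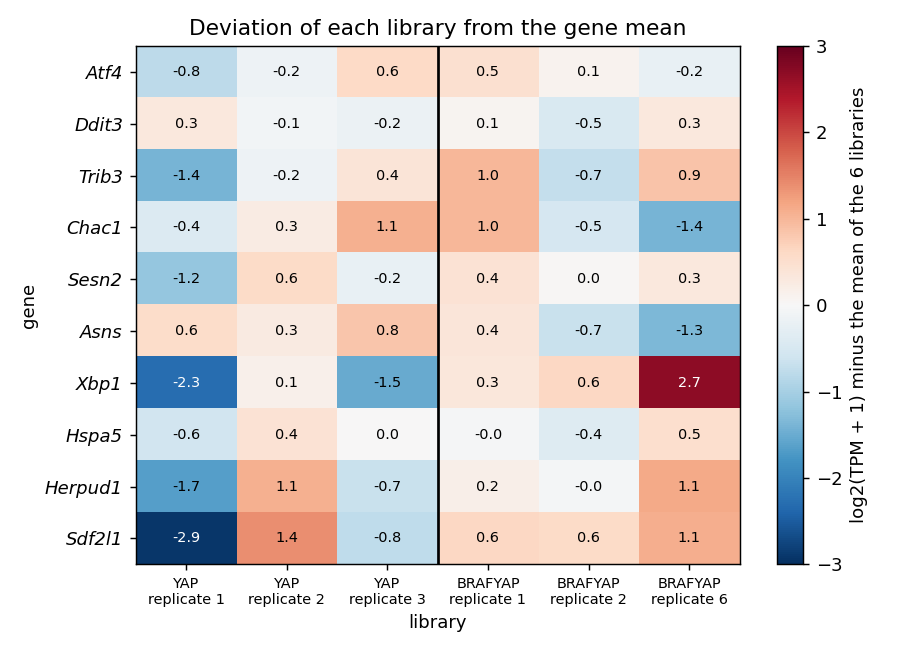
Deviation of each library (columns) from the gene's mean over the 6 libraries, in log2(TPM + 1), for the 10 genes (rows); red is above and blue below the mean. YAP replicate 1 is blue for 8 genes, and in BRAFYAP replicate 6 Xbp1 is the reddest cell while Chac1 and Asns are blue.

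To compare levels between genes, reads were divided by exonic length instead of genomic span. On that scale, Hspa5 was the most abundant, with a median over the 6 libraries of 561 (range 362 to 793). Atf4 followed at 272 (156 to 433), then Herpud1 at 154 (37.5 to 327), Xbp1 at 145 (21.6 to 826), Sdf2l1 at 138 (6.77 to 224) and Asns at 128 (29.6 to 203). Ddit3 at 50.9, Trib3 at 50.6 and Sesn2 at 47.3 were nearly equal, and Chac1 was the lowest at 15.9 (3.46 to 43.4). The ranges of all neighbours in this order overlapped.

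The wider pathway was read from 7 further lists with 97 genes, of which 70 had a mean TPM of at least 1. Differences were above 0 for 37 and below 0 for 33, with a median of 0.05, and 13 were higher and 6 lower at an unadjusted p under 0.05 (limma), beside 10.7% and 9.17% of all genes. Groups did not overlap for 11 genes higher and 10 lower in BRAFYAP, beside 11.8% and 16.4% of all genes. Only Stc2 passed the adjusted threshold. With a weight per library, 11 of the 70 were higher and 4 lower past that threshold, where 19% of all genes passed, and without YAP replicate 2, 6 were higher and 1 lower, where 6.39% of all genes passed. Without YAP replicate 1, 6 were higher and 7 lower at an unadjusted p under 0.05 (limma), where 1060 of 7349 genes were under it.

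Of the 13 genes for stress sensors and eIF2alpha control, 6 were tested and 4 were above 0, with a median of 0.71 that was 0.15 without YAP replicate 1 and 1.16 without YAP replicate 2. The 4 sensors named here were under a mean of 1 TPM, and for these genes the comparison used log2(estimated reads + 1), scaled between libraries as deposited. On this scale 0 of 16849 genes (0%) passed the adjusted threshold, 20.2% had an unadjusted p under 0.05 and 28.7% had groups that did not overlap. All 97 genes of the 7 lists could be tested on it, and groups did not overlap for 13 higher and 13 lower in BRAFYAP. Those under a mean of 1 TPM were Vldlr and Txndc11, higher, and Atf5, Aldh1l2 and Lars, lower. Ern1, which codes for IRE1, had 209, 187 and 211 estimated reads in YAP and 193, 436 and 452 in BRAFYAP (difference 0.48 ± 0.35, adjusted p = 0.455). Eif2ak3, coding for PERK, had 189, 159 and 267 reads in YAP and 206, 212 and 105 in BRAFYAP (-0.51 ± 0.42, adjusted p = 0.516). Atf6 differed by -0.49 ± 0.33 (adjusted p = 0.428) and Eif2ak4, coding for GCN2, by 0.45 ± 0.55 (adjusted p = 0.666). The groups overlapped for all 4 sensors.

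Downstream of the sensors, on log2(TPM + 1), Ppp1r15a, the stress-induced phosphatase subunit GADD34 that reverses eIF2alpha phosphorylation, was at 28.3, 121 and 68.6 TPM in YAP and 127, 86.0 and 97.1 TPM in BRAFYAP (0.71 ± 0.52, adjusted p = 0.470). Eif2s1, which codes for eIF2alpha, was at 6.91, 4.87 and 5.67 TPM in YAP and at 3.51, 3.17 and 3.35 TPM in BRAFYAP. All BRAFYAP libraries were lower (-0.64 ± 0.21, adjusted p = 0.166). Eif2b5, the catalytic subunit of its exchange factor eIF2B, was at 1.17, 2.42 and 1.67 TPM in YAP and at 3.62, 4.22 and 5.12 TPM in BRAFYAP, all higher (0.96 ± 0.25, adjusted p = 0.106). Of the 8 partner transcription factors, 4 were tested on this scale. Cebpg, which dimerizes with ATF4, was the one of these whose groups did not overlap, higher in BRAFYAP (0.38 ± 0.23, adjusted p = 0.387). Atf5, under a mean of 1 TPM, had 111, 71 and 213 estimated reads in YAP and 42, 47 and 34 in BRAFYAP. It was lower in all BRAFYAP libraries on log2(estimated reads + 1) (-1.77 ± 0.48, adjusted p = 0.124).

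Amino acid supply genes downstream of ATF4 were tested for 11 of 18, and 7 were below 0, with a median of -0.35 that was 0.03 with the replicate number as a block and -0.05 without BRAFYAP replicate 6. At an unadjusted p under 0.05 (limma), 2 were higher and 2 lower, beside 10.7% and 9.17% of all genes. Aldh18a1, an enzyme of proline synthesis, was at 2.91, 3.35 and 3.07 TPM in YAP and at 1.84, 1.59 and 1.15 TPM in BRAFYAP (-0.71 ± 0.20, adjusted p = 0.125). Slc1a5, a glutamine transporter, lay the other way, at 0.955, 1.74 and 1.43 TPM in YAP and 2.49, 2.28 and 3.78 TPM in BRAFYAP (0.69 ± 0.24, adjusted p = 0.174). Of the 12 aminoacyl-tRNA synthetases, which charge tRNAs and are ATF4 targets in part, 11 were tested and 9 were below 0, with a median of -0.35. At an unadjusted p under 0.05 (limma), 1 was higher and 2 lower, beside the same shares of all genes. Iars was lower in all BRAFYAP libraries (-0.72 ± 0.23, adjusted p = 0.154) and Gars higher in all (0.68 ± 0.21, adjusted p = 0.149). The difference of Asns had the sign of most tested genes of both lists, none of which passed the adjusted threshold.

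Of 9 other ATF4 and CHOP targets, 7 were tested and 5 were above 0, with a median of 0.58 that was 0.08 without YAP replicate 1. Gdf15, a stress-induced cytokine, was at 1.20, 31.1 and 8.12 TPM in YAP and at 60.6, 49.6 and 74.7 TPM in BRAFYAP. All BRAFYAP libraries were above all YAP libraries (2.84 ± 0.88, adjusted p = 0.147), and it passed the adjusted threshold at 3.79 without YAP replicate 2 and at 2.55 with a weight per library. Stc2, stanniocalcin 2, a secreted glycoprotein, fell: it was at 5.48, 5.16 and 3.19 TPM in YAP and at 0.426, 0.316 and 0.219 TPM in BRAFYAP. The means were 4.61 ± 1.24 and 0.321 ± 0.104 TPM (SD, n = 3 each), a difference of -2.06 ± 0.23 with an adjusted p of 0.0468. All libraries were on the same side and the difference stayed between -3.85 and -1.76 in the 16 alternatives, but the adjusted p was past the threshold in only 4 of them. The -3.85 was on log2(estimated reads + 1), another scale. On log2(TPM + 1), leaving out each library in turn gave -2.26 to -1.95. Leaving out any library but YAP replicate 2 lost the call.

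Of 20 ER chaperones and folding enzymes, the genes nearest in role to Hspa5 and Sdf2l1, 17 were tested and 12 were above 0. The median was 0.45. At an unadjusted p under 0.05 (limma), 5 were higher (Pdia3, Dnajc3, Creld2, Ero1l and Txndc5) and 0 lower, beside 10.7% and 9.17% of all genes. Groups did not overlap for 4 genes higher and 2 lower in BRAFYAP, beside 11.8% and 16.4% of all genes. Txndc5, a disulfide isomerase, was at 1.98, 3.26 and 2.39 TPM in YAP and at 4.72, 7.86 and 5.63 TPM in BRAFYAP (0.99 ± 0.26, adjusted p = 0.111). Creld2, an ER stress-inducible folding factor, was at 0.732, 5.64 and 2.22 TPM in YAP and at 7.04, 7.99 and 9.04 TPM in BRAFYAP (1.43 ± 0.47, adjusted p = 0.159). Without YAP replicate 1 and BRAFYAP replicate 6 the median of the list was -0.06, with 8 genes above 0 and 9 below. Of 17 genes for ER-associated degradation and translocation, 14 were tested and 8 were above 0, with a median of 0.09. Without YAP replicate 1 the median was -0.10, with 5 above 0 and 8 below. Derl1, a membrane protein of the degradation channel, was higher in all BRAFYAP libraries (1.15 ± 0.42, adjusted p = 0.196) and its relative Derl2 lower in all (-0.35 ± 0.22, adjusted p = 0.401).

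**Figure D4:**
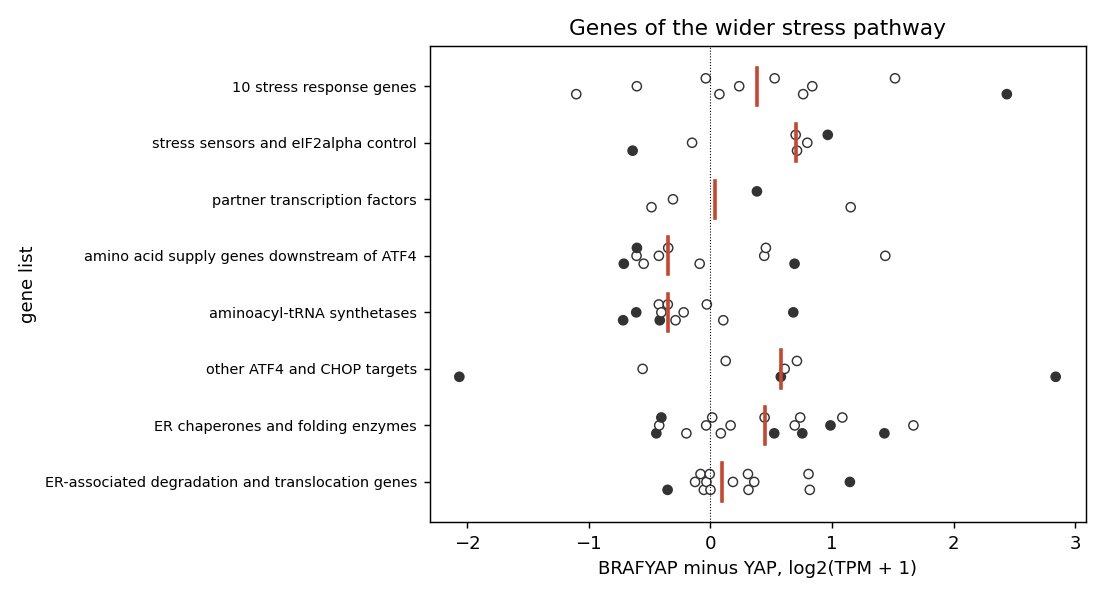
BRAFYAP minus YAP on log2(TPM + 1) for each tested gene of the 10 stress response genes and of the 7 further lists (rows). Filled points are genes whose groups did not overlap and red bars are list medians, which run from -0.35 for the amino acid and tRNA synthetase lists to 0.71 for the sensors and eIF2alpha control (0.15 without YAP replicate 1).

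Genes that respond to cell dissociation had higher sums in BRAFYAP. The summed TPM of 16 such genes were 1989 to 3076 in YAP and 4318 to 5234 in BRAFYAP, without overlap. At an unadjusted p under 0.05 by limma, 7 of the 16 were higher and 0 lower, beside 10.7% and 9.17% of all genes, and 0 of the 16 passed the adjusted threshold. The 7 were Jun, Junb, Egr1, Ier2, Dusp1, Hspa1a and Hspa1b. Groups did not overlap for these 7 and for Hspa8, which was lower in all BRAFYAP libraries. The heat shock gene Hspa1b was at 15.5, 299 and 75.3 TPM in YAP and at 431, 763 and 923 TPM in BRAFYAP. As for Xbp1, Hspa5, Herpud1, Sesn2 and Sdf2l1, YAP replicate 1 was its lowest library and YAP replicate 2 the highest of the YAP group. In these genes a response to dissociation and an effect of genotype cannot be told apart. The part of either in the values of the 10 genes was not tested.

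Markers of the sorted cells were mixed. The 6 epithelial markers summed to 831 to 2438 TPM in YAP and 1001 to 2561 TPM in BRAFYAP, and the 12 thyroid follicular markers to 15.3 to 23.3 and 6.80 to 22.8 TPM. Sums of different lists cannot be set against each other: Tg, with a span of 179969 bases, had 22118 estimated reads but 3.62 TPM in BRAFYAP replicate 6. Pax8, a thyroid lineage factor, had 5843 to 14237 estimated reads. Myeloid and T cell markers were also present, at 1181 to 4359 TPM in YAP and 414 to 1277 TPM in BRAFYAP, chiefly Lyz2, Csf1r and C1qa. The T cell receptor genes Trbc1 and Trbc2 lay the other way. Trbc2 was at 2.05, 1.62 and 0.679 TPM in YAP and 20.1, 44.6 and 72.4 TPM in BRAFYAP. It passed the adjusted threshold (4.12 ± 0.49, adjusted p = 0.0468 by limma), and the groups of Trbc1, also higher in BRAFYAP, did not overlap. Other T cell genes did not follow. Trac overlapped, at 0.407, 0.275 and 0.315 TPM in YAP and 0.249, 0.0354 and 1.40 TPM in BRAFYAP. Cd3e had 42, 25 and 15 estimated reads in YAP and 1, 1 and 35 in BRAFYAP, and Cd3g 31, 24 and 8 against 0, 3 and 32. The sum of the myeloid and T cell markers was highest in YAP replicate 1, the library in which most of the 10 genes were lowest. It was lowest in BRAFYAP replicate 6. Fibroblast markers were at 16.1 to 31.9 and 13.3 to 28.2 TPM and endothelial markers at 0.148 to 2.35 and 0.0677 to 0.808 TPM. The part of these other cell types in the stress gene values was not tested.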

How the data were processed

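Kate-positive cells (about 20000 per library) were sorted, and RNA was amplified with 12 cycles before library making with 8 cycles. Per the labels, libraries were grouped by title. The study's methods give the same doxycycline start as the labels and a sentence of its results a later one. They also describe 1 tumor per mouse for each replicate, where the labels give pools of 3 for YAP; both points follow the labels here. STAR 2.6.1d (build mm10) and Partek were the authors' aligner and quantifier, and the deposited table holds TPM plus 1e-04 for 35027 genes (0 columns without a sample). Their columns sum to 181218. Low values (under 200 reads) came out as whole reads within 0.05 for 71.7 to 76.0% when multiplied by genomic span and for 22.3 to 25.0% with exonic length (GENCODE M21), so the span had been the divisor. Estimated reads follow from it, and depth intervals were not computed since PCR duplicates carry no molecular identifiers.

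The 2 groups were contrasted with limma 3.58.1 under R 4.3.3 (lmFit and trended eBayes, two-sided). It ran on log2(TPM + 1) over the 7319 genes whose mean reached 1, p-values were adjusted by Benjamini-Hochberg over all of them, and an adjusted p under 0.05 counted as a call. A fold change on this scale understates that of low genes. Genes under that mean were compared on log2(estimated reads + 1) with a mean of at least 10. The fit was tested on simulated data. Differences are BRAFYAP minus YAP with SE. Replicates are separate libraries, and each p-value sets a difference against a variance shared by the libraries of both groups. By the labels these are pools in YAP and single tumors in BRAFYAP, so that variance is not the spread between tumors of either genotype.

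The 10 genes and the lists were chosen with earlier results of these data known. Named from the lists were genes past the threshold, 5 sensor and eIF2alpha genes, and per list the 2 with the largest difference among those whose groups did not overlap. Sdc1, Hspa1b, the markers given with values and the list genes under 1 TPM other than the sensors were chosen after their values were seen. For Hspa5 and Ddit3 the 3 nearest profiles were named. Alternatives were a pseudocount of 0.1, no filter, median-ratio or quantile scaling, eBayes without a trend, a weight per library, a replicate block, undoing the length division and leaving out each library. Removing GC trends, and leaving out YAP replicate 1 and BRAFYAP replicate 6 together, were chosen after seeing the data.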

Additional observations from a re-analysis of the deposited data

How the results depend on the processing

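The number of all genes past the threshold, 18, moved with most settings. It was 1 with a pseudocount of 0.1, with median-ratio scaling and without a trend, 79 with quantile scaling, 1393 with a weight per library, and 0 without the filter (3891 genes at an unadjusted p under 0.05), with the length division undone (3408) and with the replicate block (987). Leaving out a library gave 0 to 465. Of the 10 genes, 0 passed, except 1 (Xbp1) with a weight per library. The groups of 1 gene did not overlap, and of 1 to 5 when a library was left out: 5 without YAP replicate 2 (Asns, Herpud1, Sdf2l1, Sesn2 and Xbp1), 3 without BRAFYAP replicate 1 (Asns, Chac1 and Xbp1), 2 without BRAFYAP replicate 2 (Trib3 and Xbp1), and 2 without YAP replicate 1 and BRAFYAP replicate 6 (Hspa5 and Xbp1). Groups of fewer libraries overlap less readily, so these counts cannot be set beside the 28.2% of all genes found with 6 libraries. The share of all genes without overlap was not worked out for these settings. The median of the 10 ran from 0.09 to 0.59 when a library was left out, and was -0.043 with a weight per library and -0.016 without YAP replicate 1 and BRAFYAP replicate 6.

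Signs of 6 genes turned. Atf4 was -0.12 with a weight per library and -0.10 without YAP replicate 1. Ddit3 was 0.044 with median-ratio scaling, 0.11 without YAP replicate 1, 0.19 without BRAFYAP replicate 2 (-0.21 to 0.19 when a library was left out) and 0.081 with GC trends removed. Trib3 was -0.032 with a weight per library. Chac1 was 0.33 with the replicate block. Hspa5 was -0.20 with a weight per library, -0.14 with the block, -0.19 without YAP replicate 1, -0.16 without BRAFYAP replicate 6 and -0.43 without both, against 0.31 without YAP replicate 2. Herpud1 was -0.14 without both and 1.58 without YAP replicate 2. The cause was not tested. Xbp1, Asns, Sesn2 and Sdf2l1 kept their sign in all 16 alternatives.

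Replicate numbers 1 and 2 occur in both groups, but deviations of same-numbered libraries did not go together (r = -0.05 and 0.06), so the numbers were not taken as pairs. With the number as a block, Xbp1 differed by 1.55 and Asns by -0.56, and none of the 10 had an unadjusted p under 0.05. Each of the 10 genes had at least 72 estimated reads in every library.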
